A study of Mus musculus with 6 samples.

Results

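The genes described here encode myeloid receptors of the TREM, CD300 and paired immunoglobulin-like families and an adaptor that several of them use: Trem1, Trem3, Tyrobp, Pilra, Cd300a, Cd300lf and Sirpa. Members were every probe set (a group of short probes for a transcript) whose platform annotation held exactly 1 gene symbol and that symbol was on this list. This gave 11 probe sets for the 7 genes, of 45101 probe sets on the array. Expression had been measured on Affymetrix Mouse Genome 430 2.0 arrays in 6 samples of dendritic cells (DC), 3 Ly6G+ DC and 3 Ly6G- DC, numbered 1 to 3 in each group. Per the labels, bone marrow of C57BL/6 mice was grown for 6 days with GM-CSF at 10 ng/ml. CD11c+/MHC II+ cells with or without Ly6G, which marks the surface of neutrophils, were then sorted at the same time from shared cultures. Both groups therefore share strain, growth factor, culture time and the CD11c and MHC II gates. The labels give no age of the mice and do not say which arrays came from separate cultures, so the p-values reflect array-to-array spread that may be technical.

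Receptors of these families sit on myeloid cells and come in activating and inhibitory forms. Activating receptors such as TREM-1 have a short tail and signal through the adaptor DAP12, the product of Tyrobp, whose ITAM motif recruits the kinase Syk. Inhibitory receptors such as PILRα, CD300a, CD300lf and SIRPα carry ITIM motifs in their own tails, which recruit the phosphatases SHP-1 and SHP-2. TREM-1 amplifies inflammatory responses of neutrophils and monocytes, and SIRPα binds CD47, the signal that protects cells from being engulfed.

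Trem1 and Trem3 are neighbours in the RefSeq gene table (GRCm38.p6), with 0 protein-coding genes between them. Cd300a and Cd300lf flank 9 others, all of the CD300 family. Promoter windows from RefSeq, which cover 250 bases before to 50 after an annotated start, were at hand for 4 of the 7 genes. They are shown to set 3 genes with positive log2 fold changes beside Cd300a, whose value was negative in the fit used here and positive only after scaling the arrays to a common median. Capitals mark GAGGAA, the core bound by ETS factors such as PU.1, the master regulator of myeloid cells, or TTCCTC where the core lies on the other strand. Sequences run 5′ to 3′ on the strand of the gene, in build GRCm38.p6, at chr17:48232489-48232788 on the plus strand for Trem1, chr5:137836229-137836528 on the minus strand for Pilra, chr11:115133943-115134242 on the minus strand for Cd300lf and chr11:114889791-114890090 on the plus strand for Cd300a.
Trem1: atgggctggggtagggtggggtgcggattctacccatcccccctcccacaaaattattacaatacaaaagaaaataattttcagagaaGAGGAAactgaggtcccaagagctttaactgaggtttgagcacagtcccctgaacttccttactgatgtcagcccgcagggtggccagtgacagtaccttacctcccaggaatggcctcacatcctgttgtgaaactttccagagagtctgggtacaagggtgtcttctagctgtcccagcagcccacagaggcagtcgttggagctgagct
Pilra: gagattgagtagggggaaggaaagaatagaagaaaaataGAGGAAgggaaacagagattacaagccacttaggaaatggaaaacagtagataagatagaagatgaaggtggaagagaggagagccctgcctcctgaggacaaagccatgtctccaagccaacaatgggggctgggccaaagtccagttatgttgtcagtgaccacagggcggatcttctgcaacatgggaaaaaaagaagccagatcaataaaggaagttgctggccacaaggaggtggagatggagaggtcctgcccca
Cd300lf: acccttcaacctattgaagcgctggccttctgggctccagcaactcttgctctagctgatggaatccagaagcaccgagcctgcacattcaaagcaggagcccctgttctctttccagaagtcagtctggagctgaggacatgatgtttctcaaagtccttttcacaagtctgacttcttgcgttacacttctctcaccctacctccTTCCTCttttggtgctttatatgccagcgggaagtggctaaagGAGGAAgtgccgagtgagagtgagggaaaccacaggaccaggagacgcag
Cd300a: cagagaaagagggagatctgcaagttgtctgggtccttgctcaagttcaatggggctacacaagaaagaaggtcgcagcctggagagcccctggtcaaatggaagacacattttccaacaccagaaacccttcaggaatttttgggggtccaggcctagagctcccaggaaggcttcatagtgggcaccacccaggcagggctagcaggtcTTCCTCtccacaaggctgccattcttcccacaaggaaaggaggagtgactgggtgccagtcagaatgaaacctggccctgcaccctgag

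GAGGAA was found on either strand in all 4 windows, against 28.3% of the 32851 RefSeq windows of this length. Cd300lf held 2 matches, at bases -43 to -38 and 1 to 6 from its start. Trem1 held 1 at -162 to -157, Pilra 1 at -211 to -206 and Cd300a 1 at -39 to -34. The motif of C/EBP factors of granulocytes and monocytes, searched as TTGCNNAA on both strands, matched once each in Pilra and Cd300a, against 10.8% of all windows. The AP-1 motif TGANTCA had 0 matches in these 4 windows and was held by 7.81% of all windows. The match counts describe these letters alone, and Cd300a held GAGGAA as well as the other 3 genes.

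Properties of the arrays bear on every value below. Hybridization controls, transcripts spiked into each sample before hybridization, put Ly6G+ DC 2, Ly6G- DC 2 and Ly6G- DC 3 on a high side (geometric mean signal 6688 to 12842) and the other 3 arrays on a low side (1529 to 2039). The 3' over 5' ratio of Actb probe sets, a sign of RNA quality, was 3.98 to 6.85 on the high side and 1.17 to 1.49 on the low side. A side therefore holds 1 array of one group and 2 of the other. Markers of other cells also moved with the sort. All 11 measured neutrophil markers were higher on every Ly6G+ than on every Ly6G- array, and their summed signal was 83771 to 108101 in Ly6G+ DC and 11086 to 26887 in Ly6G- DC. All 5 measured monocyte markers had positive log2 fold changes, with summed signals of 13152 to 17642 in Ly6G+ DC and 4095 to 12610 in Ly6G- DC. Fn1 and F13a1 among them overlapped between groups and were lower on every high-side array, while the others overlapped between sides. Their log2 fold changes were 0.75 ± 0.43 for Fn1 and 1.33 ± 0.57 for F13a1 (SE). With the control side as a block these 2 were 0.51 ± 0.33 and 0.97 ± 0.48. None of the 9 dendritic cell markers was above 0, and their summed signal was 70006 to 141037 in Ly6G+ DC and 112580 to 256431 in Ly6G- DC. Of these, H2-Aa and Cd74 were higher on every high-side array, while the others overlapped between sides. Their log2 fold changes of -1.30 ± 0.74 for H2-Aa and -1.02 ± 0.54 for Cd74 were -0.61 ± 0.26 and -0.63 ± 0.29 (SE) with the control side as a block. The macrophage list had 4 of 8 markers above 0, with summed signals of 28403 to 41507 in Ly6G+ DC and 27528 to 52852 in Ly6G- DC. That count was 5 with quantile normalization and 6 after scaling to a common median. Adgre1, Mrc1, C1qa and Fcgr1 were lower and C1qb higher on every high-side array, and the other macrophage markers overlapped between sides. Mast cell, basophil and eosinophil markers had 4 of 5 above 0 (5 after scaling to a common median), with summed signals of 1486 to 3141 in Ly6G+ DC and 845 to 1145 in Ly6G- DC. T and NK cell markers had 0 of 3 above 0, with 467 to 1105 in Ly6G+ DC and 1387 to 1842 in Ly6G- DC. B cell markers had 0 of 4 above 0 (3 after scaling to a common median), with 278 to 325 in Ly6G+ DC and 361 to 494 in Ly6G- DC. Erythroid genes had 1 of 2 above 0, with 2414 to 3078 in Ly6G+ DC and 2659 to 4248 in Ly6G- DC. No marker was listed at a signal of 0. Values with the control side as a block stand beside several results. The part of RNA quality and of other cells was not tested, and more cells of a type cannot be told apart from more RNA per cell.

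The comparison asks how these receptor genes differ between dendritic cells that carry Ly6G and those that do not. Of the 7 genes, 6 had a positive log2 fold change (Ly6G+ over Ly6G-) and Cd300a a negative one, which turned positive after scaling the arrays to a common median. Fold changes are on the scale of log2(signal + 16), which understates those of dim genes. Their median was 0.96, against -0.07 over all 13262 genes tested, of which 44.3% were above 0. None of the 7 passed limma's test at an adjusted p under 0.05, and 0% of all genes did, where the smallest adjusted p was 0.0578. By the unadjusted p, at under 0.05, 4 of the 7 were higher (Trem1, Trem3, Pilra and Cd300lf), against 3.39% of all genes, and 0 were lower, against 3.51%. The genes were grouped with earlier results of these arrays known, so these counts describe the group. The count of 4 rested on single arrays: leaving out Ly6G+ DC 1 or Ly6G- DC 2 gave 2, and leaving out either array numbered 3 gave 1. It was 1 without the intensity trend in the variance model, where 382 of all genes were higher. Leaving out Ly6G+ DC 1 or Ly6G- DC 2 left 375 or 448 of all genes higher. Leaving out Ly6G+ DC 3 or Ly6G- DC 3 left 182 or 269. Trem3 alone had groups that did not overlap, 1 of 7 against 4.95% of all genes, and leaving out arrays made non-overlap more frequent in all genes too. Without Ly6G+ DC 2, 5 of the 7 did not overlap, against 10.1% of all genes, and without Ly6G- DC 1 also 5, against 14.3%. No member was lower without overlap, against 7.86% of all genes. Over all genes, 450 were higher and 465 lower at that unadjusted p, and 1038 and 122 after scaling every array to the same median.

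**Figure D1:**
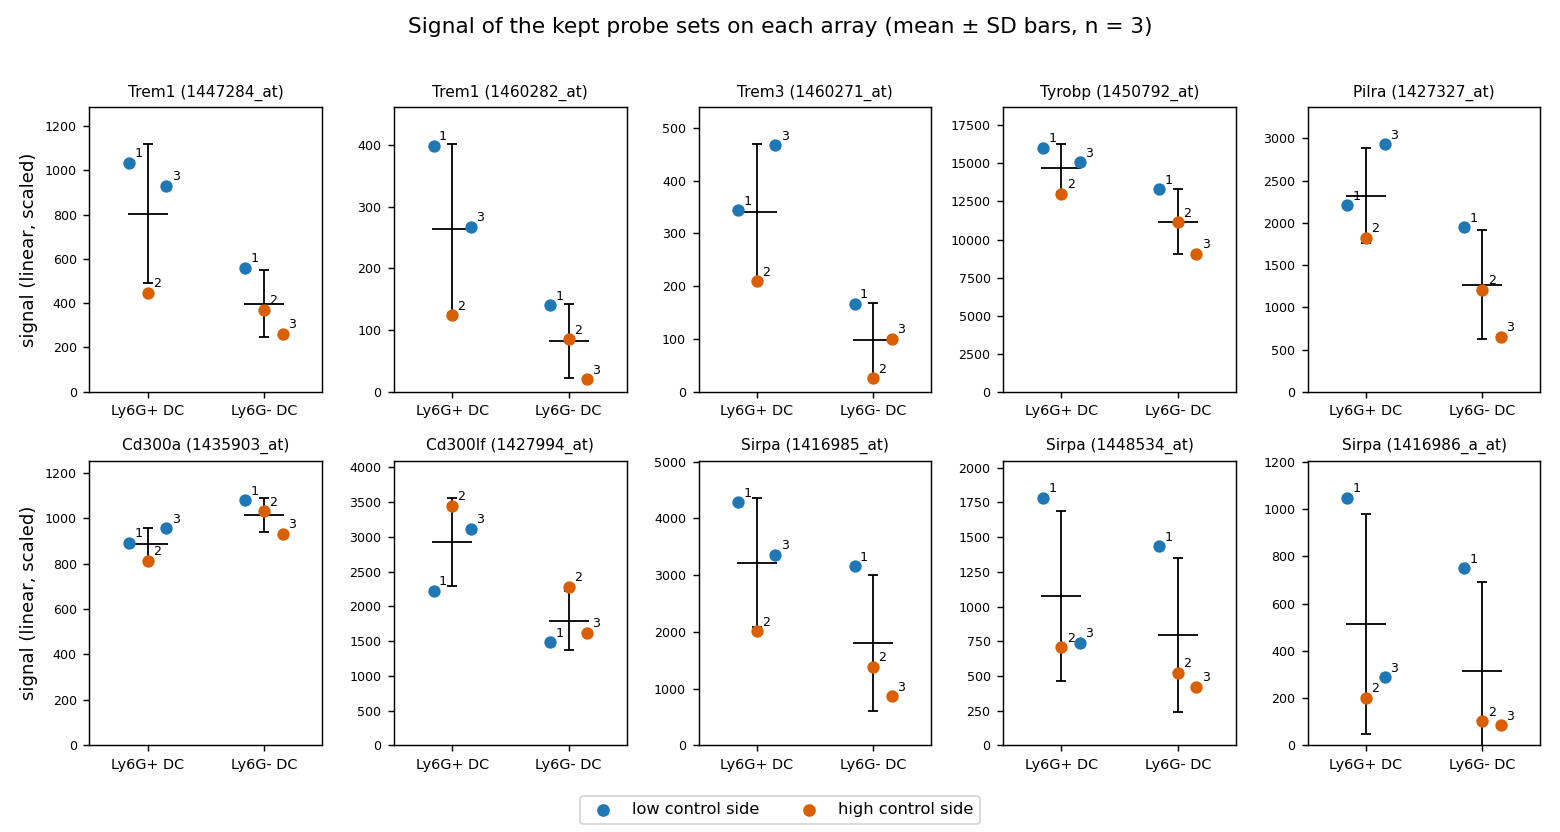
Signal (linear, scaled by the authors) of the 10 kept probe sets of the 7 genes on each array, Ly6G+ DC left and Ly6G- DC right, with black bars for mean ± SD (n = 3) and numbers for the replicate. Colour marks the side of the hybridization controls; only Trem3 has Ly6G+ arrays that all lie above the Ly6G- arrays.

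Trem3, a receptor of the mouse that pairs with DAP12, had the largest log2 fold change of the 7 in this fit. Its signals were 343.7, 209.7 and 466.9 on Ly6G+ arrays 1 to 3, against 166.7, 25.2 and 100.8 on Ly6G- arrays 1 to 3. Every Ly6G+ array lay above every Ly6G- array, and the 25.2 of Ly6G- DC 2 lay under the 40th percentile of all signals on that array, 59.5, the level used as a filter. The log2 fold change was 1.83 ± 0.53 (SE; 95% interval from 0.65 up to 2.998), with an unadjusted p of 0.00573 and an adjusted p of 0.661 by limma. With the control side as a block it was 1.45 ± 0.43, and it ranged over 1.22 to 2.29 when single arrays were left out.

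Trem1, its neighbour and the family's best-known amplifier of inflammation, had 2 kept probe sets. The brighter, 1447284_at, had signals of 1034.1, 447.6 and 930.1 on Ly6G+ arrays, against 560.7, 370.3 and 262.0 on Ly6G- arrays. Ly6G+ DC 2 lay below Ly6G- DC 1, so the groups overlapped at these arrays. The mean of Ly6G+ DC was 804 ± 313 and that of Ly6G- DC 398 ± 151 (SD, n = 3), a log2 fold change of 0.96 ± 0.39 (SE; unadjusted p = 0.0308, adjusted p = 0.706 by limma). The dimmer, 1460282_at, had 399.1, 124.3 and 267.6 on Ly6G+ arrays and 140.0, 85.7 and 20.7 on Ly6G- arrays, with a log2 fold change of 1.61 ± 0.59 (SE) in a fit over probe sets. It overlapped through the same arrays, Ly6G+ DC 2 and Ly6G- DC 1, and the 20.7 of Ly6G- DC 3 lay under that array's 40th percentile of 61.7.

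Tyrobp, whose product DAP12 carries the signal of TREM-1 and TREM-3, was bright in both groups. Its signals were 16028, 13001 and 15074 on Ly6G+ arrays and 13299, 11149 and 9072 on Ly6G- arrays, between the 99.1 and 99.7 percentiles of an array's probe sets. The groups overlapped, since Ly6G- DC 1 exceeded Ly6G+ DC 2. The log2 fold change was 0.41 ± 0.35 (SE; adjusted p = 0.793 by limma), with a 95% interval of -0.36 to 1.17 that holds both 0 and the estimate for Trem1. It was 0.27 without Ly6G- DC 3, 0.74 after scaling the arrays to a common median and 0.30 ± 0.22 (SE) with the control side as a block. Within the array name of number 1 it was 0.27, and within the other name 0.48. The first sets Ly6G+ DC 1 against Ly6G- DC 1 alone, and neither value was tested.

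Pilra, the inhibitory member of the PILR pair, had signals of 2208, 1823 and 2930 on Ly6G+ arrays and 1946, 1210 and 654 on Ly6G- arrays. Ly6G- DC 1 lay above Ly6G+ DC 2, and Ly6G- DC 3 was the lowest array. The log2 fold change of 0.97 ± 0.39 (SE; unadjusted p = 0.0320, adjusted p = 0.709 by limma) became 0.56 when Ly6G- DC 3 was left out and 1.34 when Ly6G- DC 1 was. Within the array name that the titles give to number 1, held only by Ly6G+ DC 1 and Ly6G- DC 1, the difference was 0.18. Within the other name it was 1.36, and neither was tested.

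Sirpa, the inhibitory receptor for CD47 and a marker of conventional type 2 dendritic cells and macrophages, had 3 kept probe sets. The brightest, 1416985_at, had 4284, 2013 and 3363 on Ly6G+ arrays and 3159, 1386 and 864 on Ly6G- arrays. Ly6G- DC 1 exceeded Ly6G+ DC 2. Its log2 fold change was 0.97 ± 0.46 (SE; unadjusted p = 0.0606, adjusted p = 0.710 by limma), which became 0.55 when Ly6G- DC 3 was left out and 1.48 when Ly6G- DC 1 was. Within the array name of number 1, a single array per group, the difference was 0.44. Within the other name it was 1.24, and neither was tested. The others, 1448534_at and 1416986_a_at, had log2 fold changes of 0.50 ± 0.50 and 0.98 ± 0.78 (SE), or 0.13 ± 0.37 and 0.28 ± 0.49 (SE) with the control side as a block. Their signals spanned 422.9 to 1783.1 and 86.0 to 1048.0. All 3 overlapped between groups, and on all 3 the 3 high-side arrays were the lowest of the 6.

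The CD300 genes had estimates of opposite sign, except after scaling the arrays to a common median, and their difference was not tested. Cd300lf, an inhibitory receptor that binds lipids of dying cells, had 2227, 3448 and 3115 on Ly6G+ arrays and 1481, 2284 and 1618 on Ly6G- arrays. Only Ly6G+ DC 1 and Ly6G- DC 2 crossed, by 2227 against 2284. Its log2 fold change was 0.70 ± 0.31 (SE; unadjusted p = 0.0428, adjusted p = 0.710 by limma). With the control side as a block it was 0.83 ± 0.25, with 0.82 within the low side and 0.84 within the high side. Its promoter window held 2 GAGGAA matches and those of Trem1, Pilra and Cd300a 1 each. A relation of match counts to fold changes was not tested.

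Cd300a, an inhibitory receptor with ITIM motifs, had the 1 negative estimate. Its bright probe set had 892.7, 812.7 and 955.1 on Ly6G+ arrays and 1079.5, 1031.5 and 932.2 on Ly6G- arrays. Ly6G+ DC averaged 887 ± 71.3 and Ly6G- DC 1014 ± 75.1 (SD, n = 3), with overlap through Ly6G+ DC 3 and Ly6G- DC 3. The log2 fold change was -0.19 ± 0.26 (SE; adjusted p = 0.867 by limma), with a 95% interval of -0.76 to 0.38. Scaling the arrays to a common median moved the median of all genes by 0.30 and Cd300a to 0.14, which is -0.10 relative to that median. The other probe set, 1445292_at, was the 1 of 11 that did not pass the filter on low signals, with 8.0 to 82.2 over the 6 arrays.

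**Figure D2:**
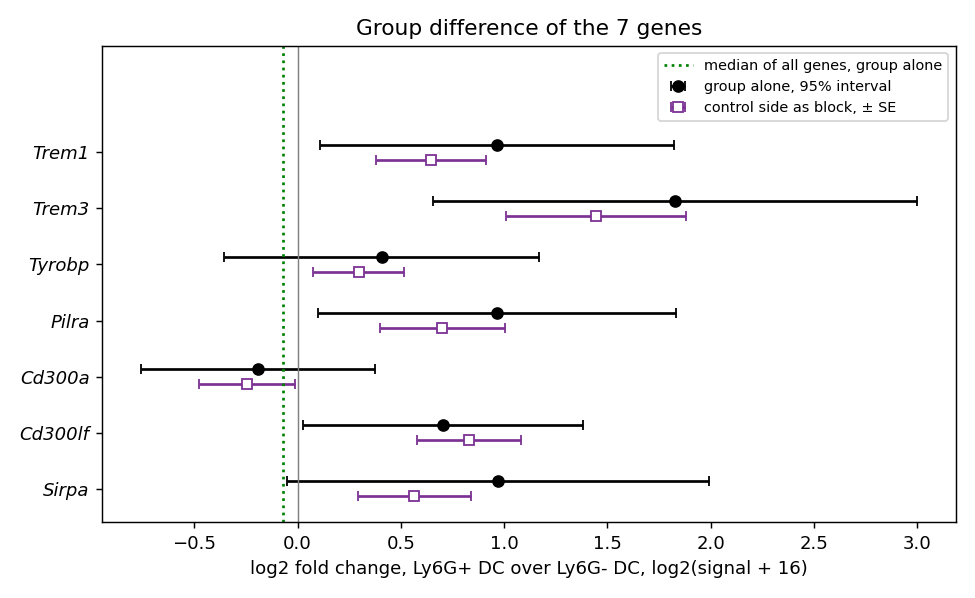
Log2 fold change of the 7 genes, Ly6G+ DC over Ly6G- DC on the log2(signal + 16) scale, in the fit of the group alone (filled, 95% interval) and with the control side added as a block (open, ± SE); the dotted line is the median of all genes at -0.07. Trem3 is farthest from 0 at 1.83, and Cd300a is the only gene below 0, but at 0.14 after scaling to a common median.

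Some of the 7 genes also followed the side of the hybridization controls. Trem1, Tyrobp, Pilra and Sirpa were lower on every high-side array than on every low-side array, 4 of 7 against 11.6% of all genes. In the fit with both terms, the high minus low log2 difference was -1.21 ± 0.27 (SE; adjusted p = 0.0426 by limma) for Sirpa, which passed the test. Trem1, Trem3 and Pilra had -0.96 ± 0.27, -1.14 ± 0.43 and -0.80 ± 0.30 (SE) and did not pass. Genes lower on the high side at that threshold were 1.54% of all genes. Tyrobp had -0.33 ± 0.22, Cd300lf 0.38 ± 0.25 and Cd300a -0.16 ± 0.23 (SE). With the side in the fit, the group log2 fold changes of Trem1, Pilra and Sirpa were 0.64 ± 0.27, 0.70 ± 0.30 and 0.57 ± 0.27 (SE), smaller than with the group alone. The difference for Sirpa was 0.26 within the low side and 0.87 within the high side, each resting on 3 arrays with no test. The same 4 genes were at an unadjusted p under 0.05 as without the block, against 3.77% of all genes, and 0 of the 7 passed when adjusted, against 0.0679%.

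**Figure D3:**
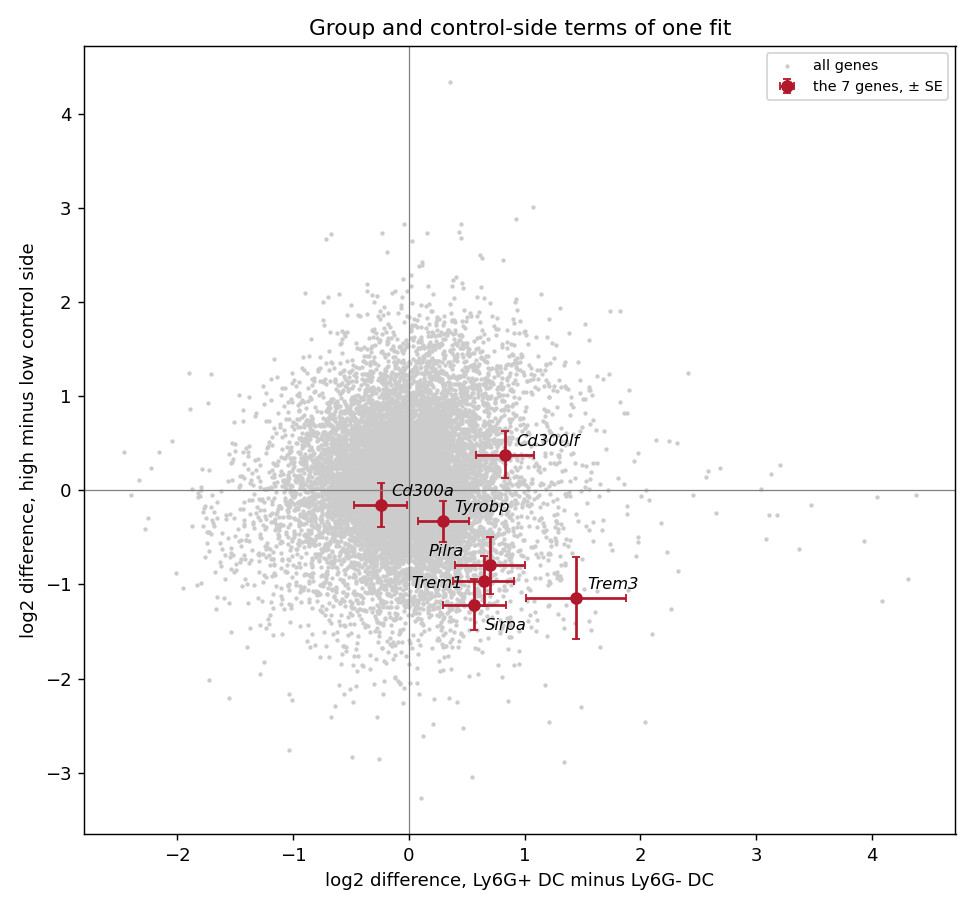
For each gene, the log2 difference between groups (horizontal, Ly6G+ DC minus Ly6G- DC) and between control sides (vertical, high minus low) from a single limma fit; grey points are all 13262 genes and red points the 7 genes with ± SE. Trem1, Trem3, Pilra and Sirpa lie at positive group and negative side differences, while Cd300lf has positive values for both.

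Across the 6 arrays, log2 signals of Trem1, Tyrobp, Pilra and Sirpa ran in parallel, with Pearson's r of 0.90 to 0.98 among the 6 pairs. These 4 genes were also those lower on every high-side array. Trem3 had r of 0.71 to 0.78 with these 4, 0.35 with Cd300lf and -0.41 with Cd300a. Cd300lf had r of 0.24 to 0.51 with these 4 and -0.64 with Cd300a. The arrays share group, control side and scaling, so these coefficients are descriptions over 6 points. The genes most like Trem1 by this measure were Nadk2, Nadk and Ier2 (r = 0.995, 0.995 and 0.993). Those most like Tyrobp were Mapk14, Rnf128 and Egln3 (0.995, 0.994 and 0.993), and those most like Sirpa were Tm6sf1, Capg and Snx10 (0.999, 0.998 and 0.995).

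Relatives of the 7 genes and the steps around them were taken from lists of receptors, adaptors, effectors and ligands. Of 76 listed genes 54 were measured, and 0 passed limma's test at an adjusted p under 0.05, as for all genes. Beside the counts of each list below, 44.3% of all genes were above 0. By limma's unadjusted p, at under 0.05, 3.39% of all genes were higher and 3.51% lower. Without overlap, 4.95% of all genes were higher and 7.86% lower. Of the other TREM genes, 1 of 4 was above 0, 0 had an unadjusted p under 0.05 and the median was -0.24, or 0.08 after scaling the arrays to a common median. Trem2, a lipid receptor of macrophages and microglia, had a log2 fold change of 0.46 ± 0.44 and Treml2 one of -0.0025 ± 0.29 (SE), or -0.05 ± 0.28 with the control side block. Trem2 was lower on every high-side array, and with that block it had 0.07 ± 0.27. All 3 measured CD300 relatives were above 0, with a median of 0.63 (0.96 after scaling to a common median), and 0 had an unadjusted p under 0.05. Examples were Cd300c2 at 0.66 ± 0.43 and Cd300lb, an activating receptor, at 0.63 ± 0.30 (SE). Cd300c2 was lower on every high-side array and had 0.36 ± 0.34 (SE) with that block. Cd300lb had 958.6, 896.6 and 1429.4 on Ly6G+ arrays and 635.8, 843.8 and 598.2 on Ly6G- arrays, with no overlap.

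Of 12 other paired receptors, 10 were above 0, with a list median of 0.81 (11 and 1.14 after scaling to a common median). At an unadjusted p under 0.05 by limma, 3 were higher and 0 lower, against 3.39% and 3.51% of all genes. The 3 were Sirpb1a, the activating counterpart of Sirpa, at 1.12 ± 0.37, Cd200r4, an activating CD200 receptor relative, at 0.95 ± 0.33, and Cd33, a sialic acid-binding lectin, at 0.97 ± 0.41 (SE). Sirpb1a had 1985, 1072 and 1848 on Ly6G+ arrays and 973, 845 and 445 on Ly6G- arrays. Both Sirpb1a and Cd200r4 were free of overlap. For the pair partner of Pilra, Pilrb1, which signals through DAP12, the log2 fold change was 0.32 ± 0.30 (SE), a gene chosen after its values were seen.

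A list of other receptors linked to DAP12 or to the Fc receptor gamma chain had 8 of 10 genes above 0. It also held the receptor kinase gene Csf1r, at -0.08 ± 0.45 (SE). The list's median was 0.54 (0.86 after scaling to a common median), and 3 were higher at an unadjusted p under 0.05 and 0 lower. Clec5a, a DAP12-coupled lectin, had 471.3, 204.7 and 926.0 on Ly6G+ arrays and 150.0, 98.4 and 190.2 on Ly6G- arrays, without overlap. Its log2 fold change was 1.56 ± 0.49, and those of the gamma chain-coupled lectins Clec4d and Clec4e were 1.86 ± 0.51 and 1.58 ± 0.43 (SE).

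Of 14 adaptors and ITAM signalling genes, 10 were above 0, with a median of 0.31 (0.14 with quantile normalization and 0.64 after scaling to a common median) and with 3 higher and 1 lower at an unadjusted p under 0.05. Hcst, which encodes DAP10, an adaptor related to DAP12, had 939.6, 581.2 and 753.9 on Ly6G+ arrays and 344.0, 459.5 and 237.2 on Ly6G- arrays. These did not overlap, and the log2 fold change was 1.11 ± 0.32 (SE). The scaffold proteins Lat2 and Lcp2 had 2.31 ± 0.97 and 1.09 ± 0.38 (SE), both lower on every high-side array, with 1.34 ± 0.53 and 0.81 ± 0.28 under that block. Lat2 had signals of 605.6, 150.0 and 397.4 on Ly6G+ arrays and 467.5, 15.0 and 7.5 on Ly6G- arrays. Its groups overlapped, and the 15.0 and 7.5 lay under the 40th percentiles of their arrays, 59.5 and 61.7, so the size of its fold is not well measured. Fyn, a Src family kinase, had -0.97 ± 0.29 (SE), with 429.7, 431.5 and 282.4 on Ly6G+ arrays and 678.8, 711.2 and 875.6 on Ly6G- arrays. The gamma chain adaptor Fcer1g, named after its values were seen, had 0.87 ± 0.56 (SE) and 0.32 ± 0.23 with the control side block.

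Of the 6 effectors of inhibitory receptors, 2 were above 0, with a median of -0.14 (5 and 0.18 after scaling to a common median), and 1 was higher at an unadjusted p under 0.05 and 0 lower. Ptpn6, which encodes SHP-1, had 1739, 1254 and 3524 on Ly6G+ arrays and 1245, 1010 and 691 on Ly6G- arrays, with a log2 fold change of 1.04 ± 0.40 (SE; unadjusted p = 0.0245, adjusted p = 0.705 by limma). Its groups did not overlap, by 1254 against 1245. Dok1, a docking protein, had -0.70 ± 0.40 (SE). Of 5 ligand genes, 3 were above 0, with a median of 0.08 (0.29 with quantile normalization and 0.35, with 4 above 0, after scaling to a common median), and 1 was higher at an unadjusted p under 0.05 and 0 lower. That gene, Pglyrp1, a granule protein of neutrophils that binds TREM-1, had signals of 2645, 821 and 1077 on Ly6G+ arrays against 369, 333 and 287 on Ly6G- arrays. Its log2 fold change was 1.97 ± 0.40 (SE; unadjusted p = 5.26e-04, adjusted p = 0.332 by limma), and 1.75 ± 0.36 with the control side block. Cd47, the ligand of SIRPα, had 0.34 ± 0.36, and Cd99, a ligand of PILR receptors, had -0.27 ± 0.85 (SE). With the control side block they had 0.10 ± 0.23 and -1.01 ± 0.58 (SE), and Cd47 was lower on every high-side array. Cd99 had 4925, 589 and 738 on Ly6G+ arrays and 5690, 768 and 864 on Ly6G- arrays. Both arrays numbered 1, which share an array name, were far above the others, so its estimates are not well measured.

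**Figure D4:**
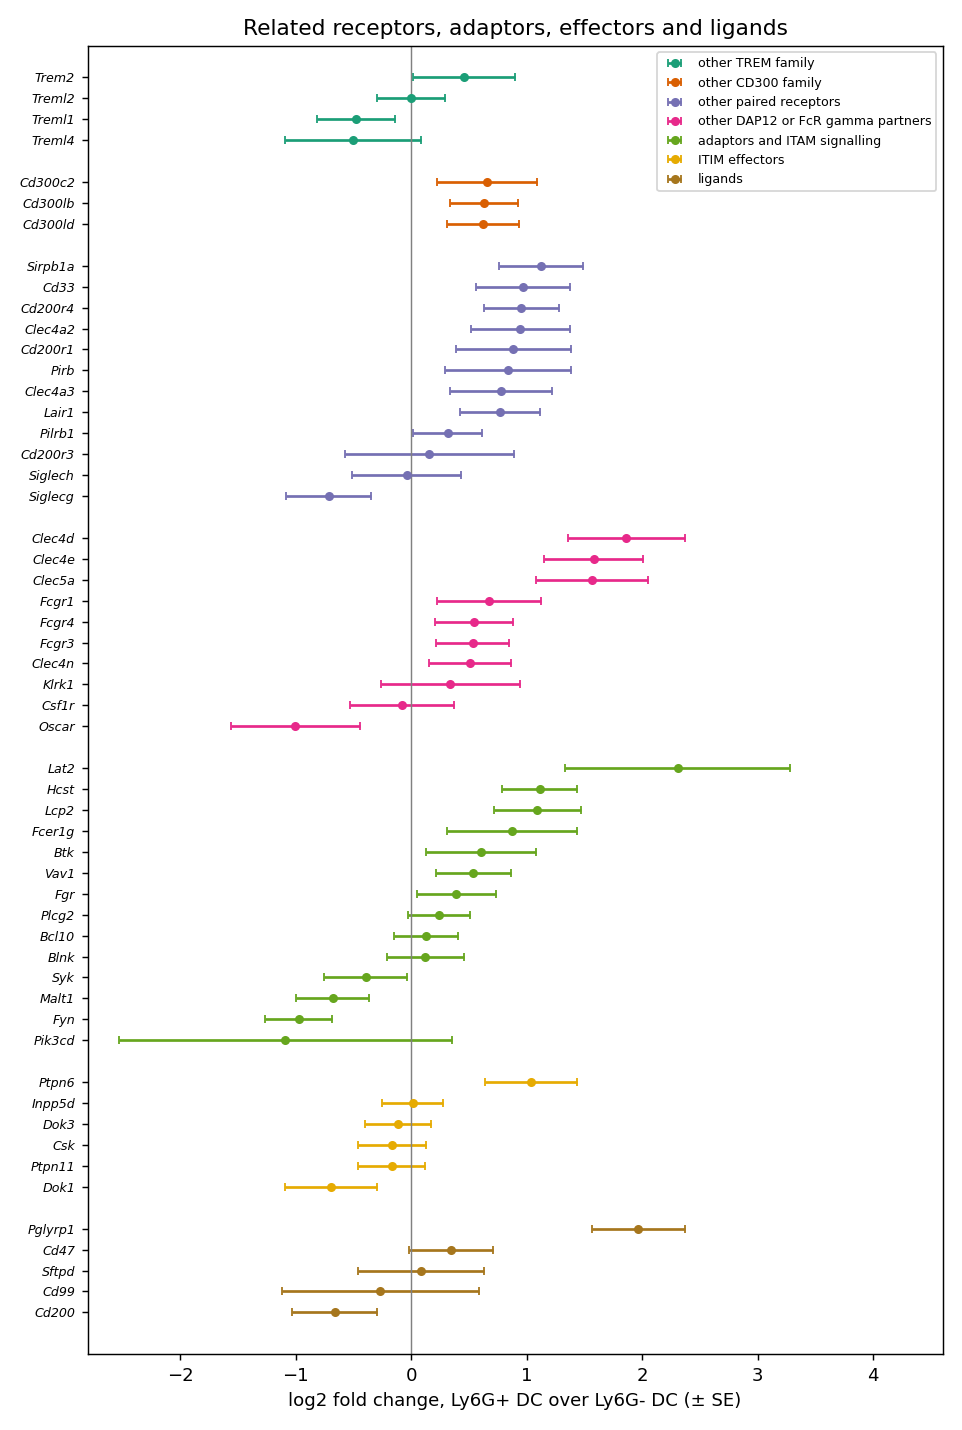
Log2 fold change (Ly6G+ DC over Ly6G- DC, ± SE, log2(signal + 16) scale) of the 54 measured relatives, adaptors, effectors and ligands, coloured by list. Pglyrp1 and Clec4d lie at 1.97 and 1.86, and Lat2, drawn at 2.31, rests on 2 Ly6G- arrays with signals under their 40th percentiles.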

How the data were processed

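The deposited table held a linear signal intensity for each probe set, and the mean after trimming 2% at either end was 250.0 on each array. The authors used Affymetrix Expression Console 2.0, MAS5 and GCOS, per the submitters' processing notes, and other settings are not given in the sources used here. Of 45101 probe sets, 34958 had 1 symbol in the platform annotation, 932 several and 9211 none, and 64 were controls. Ly6g was not analysed here.

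Signals were taken as log2(signal + 16), which understates the fold change of dim genes. Probe sets brighter than the 40th percentile of an array in 3 or more of 6 arrays were kept, 28254 in all once control probe sets were left out. A gene was its brightest kept probe set by mean log2 signal, giving 13262 genes, the 7 members included. The test was that of limma 3.58.1 under R 4.3.3 (lmFit, eBayes with an intensity trend, group alone) and Benjamini-Hochberg adjustment over all genes, at an adjusted p under 0.05. The same fit over probe sets served the further probe sets. The procedure was tested on simulated data. Errors are SE from limma or SD over 3 arrays, and precision is limited by the number of arrays.

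The control side split the arrays where the averaged log2 signals of the spiked hybridization controls lay farthest apart. Members and lists were chosen with earlier results of these data known. Of each list of relatives, genes with an unadjusted p under 0.05 were named. Where a list had under 2 such genes, its 2 brightest were named. Csf1r, Pilrb1 and Fcer1g were named outside this rule. For likeness, the 3 genes with the highest Pearson's r to Trem1, Tyrobp and Sirpa were named. Alternatives covered normalization, pseudocount, filter, variance model, blocks, probe set choice and leaving out each array. Promoter sequences are RefSeq's, and 4 of the 7 genes matched.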

Additional observations from a re-analysis of the deposited data

How the results depend on the processing

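All 7 genes stayed short of an adjusted p under 0.05 in every alternative with a test, and 6 kept their direction in all 23 alternatives. Cd300a turned to 0.14 with scaling to a common median. The number of genes called over the whole array, 0 with the group alone, was 2 with quantile normalization, 8 with scaling to a common median, 1 and 9 with pseudocounts of 1 and 64, 1 without the intensity trend, 19 with the array name block, 9 with the control side block and 2 with the mean of a gene's probe sets. Same-numbered arrays deviated from their group means with r of 0.50, 0.22 and -0.05 over genes, for numbers 1 to 3. Arrays of different number had r from -0.46 to 0.31. The arrays numbered 3 lay on different control sides, Ly6G+ DC 3 low and Ly6G- DC 3 high. These values therefore cannot decide whether equal numbers mark pairs. The main fit did not take the numbers as pairs, since the labels name no culture for an array. With the replicate number as a block, 20 genes were called over the whole array, with 0 of the 7 among them. Sirpa then also came under an unadjusted p of 0.05, and 812 of all genes were higher at that level, against 450 in the main fit. Leaving out single arrays gave 0 to 26, with 26 for Ly6G- DC 1 and 14 for Ly6G- DC 2. The count of members higher at an unadjusted p under 0.05 was 3 with quantile normalization, where 482 of all genes were higher. It was 5 with scaling to a common median, with the array name block and with the replicate block. Of all genes, 1038, 815 and 812 were then higher, against 450 in the main fit. The members' count was 1 without the intensity trend and 1 to 4 without single arrays. Of all genes, 382 were higher without that trend and 182 to 993 without single arrays. With scaling to a common median, Trem3 and Cd300lf had no overlap. The share of all genes without overlap was not computed there, so this describes the 2 genes alone. That scaling moved the genes higher at an unadjusted p under 0.05 from 450 to 1038. Members with no overlap were 1 to 5 without single arrays. The counts of 5 stood against 10.1% and 14.3% of all genes, and shares for the lower counts were not computed. The causes were not tested. Signals near an array's 40th percentile, as for Trem3 in Ly6G- DC, limit what a fold can show.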
